A study of Arabidopsis thaliana with 18 samples.

Results

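The genes described here are 40 Arabidopsis thaliana factors that make or process the precursor of ribosomal RNA in the nucleolus. They were listed by gene identifier for their known roles; the rule uses no measured value, but the list was drawn up with earlier results of these data known. All 40 were found among the 33557 genes of the table. They comprise the 2 largest subunits of RNA polymerase I, 2 nucleolins, 5 core proteins of box C/D ribonucleoproteins, 4 core proteins of box H/ACA ribonucleoproteins, 11 factors grouped with the small subunit, 13 grouped with the large subunit and 3 RNA-decay enzymes. The RNA came from whole seedlings, 14 days old, in 2 genotypes of the Col-0 accession, wild type (WT) and the mutant stch4-1, both held at 4 °C for 4 h on half-strength MS medium with sucrose. Each genotype had 3 libraries, which the table numbers and which are lettered a to c here. The labels list 18 samples; the 12 from before the cold and from 24 h of it are not analysed here. Neither the kind of lesion in stch4-1 nor separate cultures for the libraries of a genotype are stated in the labels, so p-values below measure only the spread between these libraries.

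A ribosome starts in the nucleolus, where RNA polymerase I transcribes a long precursor that holds several ribosomal RNAs with spacers between them. Small nucleolar ribonucleoproteins then modify the precursor: box C/D particles add methyl groups through fibrillarin, and box H/ACA particles convert uridine to pseudouridine through the dyskerin homologue CBF5. Helicases, scaffold proteins and nucleases fold and cut the precursor into the RNAs of the small and the large subunit. STCH4, also named REIL2, belongs to a family of zinc-finger proteins related to yeast Rei1, which acts late in large-subunit maturation, in the cytosol. The question put to the data is how transcripts of the earlier, nucleolar steps differ when REIL2 is mutated and the seedlings are cold.

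Plant genes for ribosome biogenesis are known to carry short promoter elements, the telo-box and the site II element, so the windows from 250 bases before to 50 bases after each gene start were read from the RefSeq genome and annotation of assembly TAIR10.1. The deposited table gives no coordinates, and those below are on TAIR10.1. The telo-box was searched as AAACCCTA and the site II element as TGGGCC or TGGGCT, each on both strands. A site II match on one strand can overlap a match on the other, and both then count. The telo-box was found in 20 of 40 windows (50%), against 6.22% of the windows of 27443 protein-coding genes. At least 1 site II match stood in 28 of 40 (70.0%), against 21.7%, and both elements stood together in 16 of 40 (40%), against 2.20%. A match describes the letters and is not a binding site. 4 windows are shown because their genes carry the results. RRP5 and RH29 had the largest falls, NOP10 had the largest rise among the tested factors, and NRPA1 fell without a match. Capitals mark the matches, on either strand.

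RRP5, chr3:3806694-3806993, minus strand; RH29, chr1:28951606-28951905, minus strand; NOP10, chr2:8831431-8831730, plus strand; NRPA1, chr3:21353247-21353546, plus strand, all on TAIR10.1 and given 5′ to 3′ along the gene.
RRP5: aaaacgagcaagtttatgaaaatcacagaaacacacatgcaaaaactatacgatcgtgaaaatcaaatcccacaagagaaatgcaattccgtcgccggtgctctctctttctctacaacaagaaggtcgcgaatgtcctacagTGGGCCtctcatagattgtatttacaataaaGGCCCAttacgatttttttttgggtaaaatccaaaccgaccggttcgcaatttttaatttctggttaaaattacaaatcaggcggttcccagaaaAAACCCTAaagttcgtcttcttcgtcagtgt
RH29: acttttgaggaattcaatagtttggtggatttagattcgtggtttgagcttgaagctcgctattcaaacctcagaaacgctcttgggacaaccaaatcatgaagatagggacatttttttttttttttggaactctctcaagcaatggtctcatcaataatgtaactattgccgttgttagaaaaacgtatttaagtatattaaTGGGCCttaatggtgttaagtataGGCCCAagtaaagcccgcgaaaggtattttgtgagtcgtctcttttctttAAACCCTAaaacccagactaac
NOP10: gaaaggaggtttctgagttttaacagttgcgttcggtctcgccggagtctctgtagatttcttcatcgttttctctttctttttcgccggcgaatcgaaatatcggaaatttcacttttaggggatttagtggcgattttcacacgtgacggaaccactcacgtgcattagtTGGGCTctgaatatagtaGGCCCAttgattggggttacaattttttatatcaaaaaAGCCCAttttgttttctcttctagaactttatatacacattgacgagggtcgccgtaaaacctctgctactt
NRPA1: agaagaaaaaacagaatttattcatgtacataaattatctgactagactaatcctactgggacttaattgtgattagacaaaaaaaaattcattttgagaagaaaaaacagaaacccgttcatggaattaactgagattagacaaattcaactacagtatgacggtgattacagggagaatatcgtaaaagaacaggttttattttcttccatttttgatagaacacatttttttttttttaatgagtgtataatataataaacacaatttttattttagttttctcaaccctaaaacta

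RRP5 and RH29 share an arrangement of a pair of site II matches in opposite orientation before the gene start and a telo-box just after it. FIB1 and BRX1-2 also have site II matches in both orientations before the start and a telo-box after it. Neither was called (log2 fold change 0.08 and -0.02), so the arrangement is not particular to factors that fell. NOP10 has 3 site II matches, all before the start, and no telo-box. The window of NRPA1 holds no match to either element as searched. Near its end stand the letters caacccta, which differ from the searched telo-box only in the first base.

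**Figure D1:**
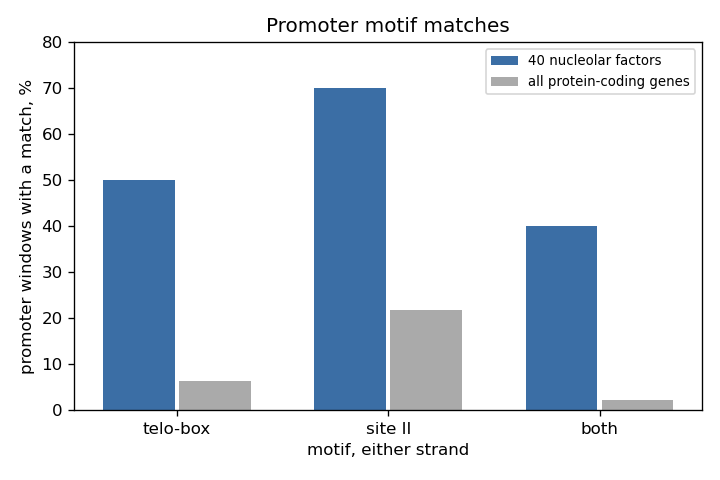
Share of promoter windows (y axis, percent) with a telo-box, a site II element or both (x axis), for the 40 nucleolar factors and for all 27443 protein-coding genes; each bar is a share of windows. The factors stand at 50%, 70.0% and 40% and all genes at 6.22%, 21.7% and 2.20%.

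Levels are in FPKM, that is, sequenced fragments per length of transcript and per size of library. The WT libraries summed to 878390 to 919310 FPKM and the stch4-1 libraries to 947220 to 987060. FPKM holds no total count, but the steps between low values gave relative depths from 1 in WT a to 1.43 in WT b, with the stch4-1 libraries between 1.01 and 1.23. REIL2 (AT2G24500), the mutated gene, read 31.2, 34.1 and 36.0 FPKM in WT and 5.65, 5.44 and 5.80 in stch4-1. The rubisco, rubisco activase and chlorophyll-binding genes of the leaf list summed to between 40263 and 53120 FPKM over all 6 libraries, and the root list to between 2162 and 2204, so both organs of the labelled seedling were present.

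As a group, the factors were lower in stch4-1. Genes with at least 1 FPKM in 3 or more libraries were tested with limma on log2(FPKM + 1), and a gene was called at a Benjamini-Hochberg adjusted p under 0.05 over all 19289 genes tested. Of the 40 factors, 39 passed that filter; the exception was the nucleolin NUC2. Limma called 16 of the 39 lower, which is 41.0%, where 14.0% of all tested genes were called lower. It called 2 of 39 higher, which is 5.13%, where 18.5% of all tested genes were called higher. The median log2 fold change (stch4-1 minus WT) was -0.13 over the factors and 0.01 over all tested genes, and 34 of 39 factors had a negative fold change.

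The differences were small, between -0.48 and 0.31 on the log2(FPKM + 1) scale. In 26 of 39 factors (66.7%) every stch4-1 library lay below every WT library, where that held for 22.7% of all tested genes. Summed over the 40 factors, FPKM came to 1494, 1530 and 1516 for WT a, b and c and to 1473, 1458 and 1446 for stch4-1, so the groups did not overlap. The median difference of the factors from their WT means was -0.13, -0.13 and -0.15 log2 units in stch4-1 a, b and c, with 31, 32 and 36 of the 39 factors below. In WT a, b and c, 25, 22 and 14 of the 39 lay below that mean, of which each WT library is a part. This count was not made over all tested genes. In whole seedlings, fewer cells of a type and less RNA per cell cannot be told apart.

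**Figure D2:**
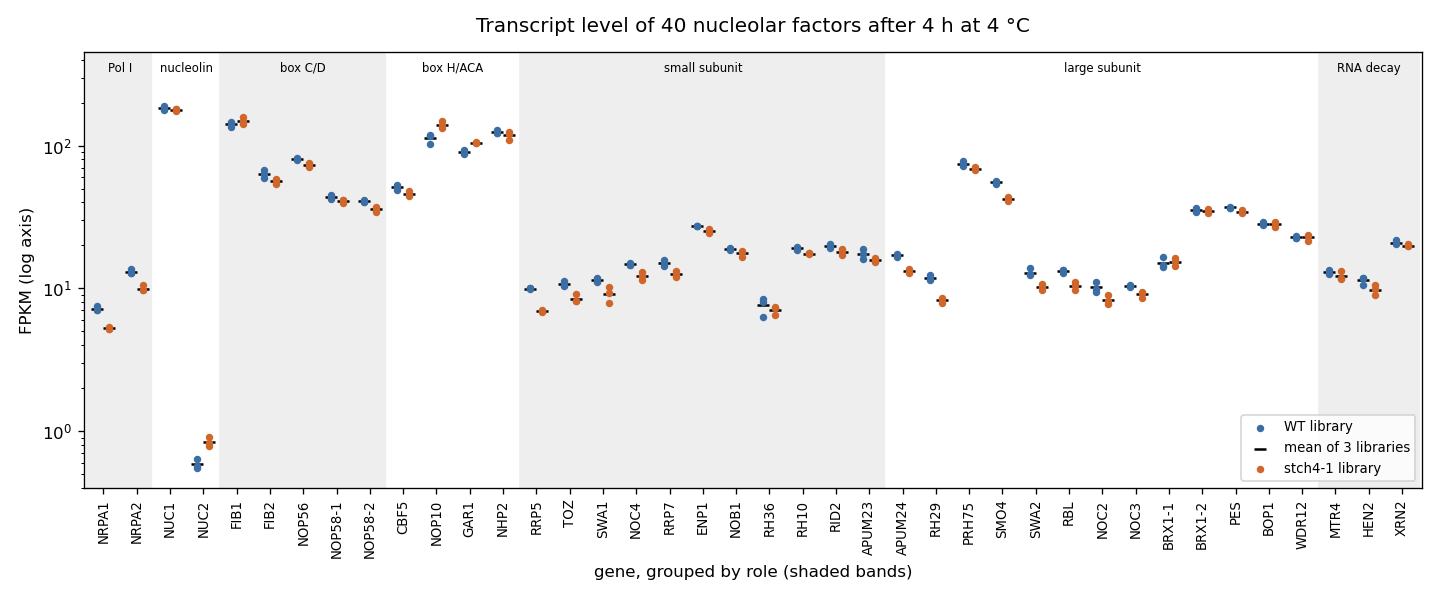
FPKM (y axis, log scale) of the 40 factors (x axis, grouped by role in shaded bands) in each of the 3 WT and 3 stch4-1 libraries; short bars are means. Levels run from under 1 FPKM for NUC2 to about 182 for NUC1 in WT, and most stch4-1 points sit just below their WT points.

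Both RNA polymerase I genes fell. NRPA1 (AT3G57660), the largest catalytic subunit, read 7.52, 7.04 and 7.06 FPKM in WT and 5.20, 5.35 and 5.15 in stch4-1. Its mean fell from 7.20 ± 0.27 to 5.23 ± 0.109 (SD, n = 3), a log2 fold change of -0.40 with a standard error of 0.064 (limma adjusted p = 0.0029). NRPA2 (AT1G29940), the second catalytic subunit, read 12.8, 12.8 and 13.7 FPKM in WT and 9.78, 10.5 and 9.66 in stch4-1 (log2 fold change -0.36, SE 0.058, limma adjusted p = 0.0028). Neither gene overlapped between genotypes. The NRPA1 call was lost once the trend with transcript length was removed (-0.17, limma adjusted p = 0.081), and that of NRPA2 was kept (-0.21, limma adjusted p = 0.024). NRPA1 shares 148 exon bases with the same-strand snRNA gene AT3G08945, for which no value is given here. NRPA2 shares 108 exon bases with the opposite-strand gene CAB1, a chlorophyll-binding protein with means of 8999 and 9031 FPKM. The strand setting of the counting is not given in the sources used here.

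The nucleolins differed in level by a wide margin. Nucleolin helps RNA polymerase I transcription and early processing, and NUC1 (AT1G48920) was the most abundant of the 40 factors, at 176, 182 and 189 FPKM in WT and 175, 179 and 180 in stch4-1. NUC1 was not called (log2 fold change -0.03, 95% interval from -0.12 to 0.05, limma adjusted p = 0.51), but quantile normalization called it lower (-0.18, limma adjusted p = 0.0076). NUC2 (AT3G18610) was the least abundant, at 0.566, 0.554 and 0.637 FPKM in WT and 0.911, 0.788 and 0.819 in stch4-1. All 3 stch4-1 values of NUC2 were above all 3 WT values, opposite to most factors. NUC2 lay under the filter; with no filter it had a log2 fold change of 0.21, which understates a low gene (limma adjusted p = 0.047), and its mean FPKM was 43.4% higher.

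Box C/D core proteins fell a little or did not pass the test. NOP56 (AT1G56110), a scaffold of the particle, read 79.4, 82.0 and 81.1 FPKM in WT and 74.7, 70.4 and 75.2 in stch4-1 (log2 fold change -0.14, SE 0.038, limma adjusted p = 0.028). NOP58-2 (AT5G27120), a second scaffold gene, read 40.4, 41.9 and 40.3 FPKM in WT and 37.3, 35.3 and 34.5 in stch4-1 (log2 fold change -0.19, SE 0.043, limma adjusted p = 0.012). Its relative NOP58-1 (AT3G05060) read 45.2, 42.2 and 42.9 FPKM in WT and 41.6, 41.8 and 39.6 in stch4-1, which do not overlap but were not called (log2 fold change -0.08, SE 0.043, limma adjusted p = 0.18, and 0.047 under quantile normalization). The call on NOP56 was lost on leaving out WT b or c, or stch4-1 a or b (limma adjusted p from 0.0565 to 0.0878) and without the eBayes trend (0.0703), while that on NOP58-2 was kept under all 13 alternatives.

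The methyltransferase fibrillarin is encoded by FIB1 (AT5G52470) and FIB2 (AT4G25630), and their values leaned apart. FIB1 read 142, 147 and 135 FPKM in WT and 148, 143 and 158 in stch4-1, which overlap (log2 fold change 0.08, 95% interval from -0.03 to 0.20, limma adjusted p = 0.24). FIB2 read 63.4, 67.7 and 59.5 FPKM in WT and 53.5, 57.3 and 58.7 in stch4-1, which do not overlap (log2 fold change -0.17, 95% interval from -0.30 to -0.04, limma adjusted p = 0.055). FIB2 was called lower once the trend with length was removed (limma adjusted p = 0.013), under quantile normalization (0.0093), with the filter set at an average of 5 FPKM (0.0483) and without WT c (0.0377). FIB1 turned to a log2 fold change of -0.05 under quantile normalization and was called under no alternative.

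Box H/ACA core proteins went both ways. CBF5 (AT3G57150), the pseudouridine synthase, read 48.7, 53.2 and 51.2 FPKM in WT and 45.5, 44.4 and 48.2 in stch4-1 (log2 fold change -0.15, SE 0.048, limma adjusted p = 0.049). That call was lost in 7 of 13 alternatives, among them the loss of WT b or c, or of stch4-1 a or b (limma adjusted p from 0.1207 to 0.1406). NOP10 (AT2G20490), a small protein that stabilises the synthase, read 103, 117 and 118 FPKM in WT and 149, 140 and 133 in stch4-1 (log2 fold change 0.31, SE 0.064, limma adjusted p = 0.0075). GAR1 (AT3G03920), which helps substrate turnover, read 91.9, 93.1 and 87.5 FPKM in WT and 104, 104 and 106 in stch4-1 (log2 fold change 0.20, SE 0.036, limma adjusted p = 0.0045). Neither NOP10 nor GAR1 overlapped between genotypes. Both rises lost their calls once the trend with transcript length was removed (0.08 and 0.06, limma adjusted p = 0.39 and 0.29), and GAR1 also under quantile normalization (0.10, limma adjusted p = 0.088). NHP2 (AT5G08180), the RNA-binding core protein, was at 125 ± 2.86 and 119 ± 7.43 FPKM (limma adjusted p = 0.28, and 0.023 under quantile normalization).

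Among the small-subunit factors 5 of 11 were called lower (45.5%, against 14.0% of all genes) and 0 higher, and all 11 had a negative fold change, as did 48.1% of all genes tested. RRP5 (AT3G11964), a scaffold needed in yeast for early cuts that free the RNAs of both subunits, read 10.04, 9.83 and 9.99 FPKM in WT and 6.89, 7.03 and 6.81 in stch4-1. The 3 libraries of a genotype lay close together, and the mean fell by 30.6% (log2 fold change -0.47, SE 0.055, limma adjusted p = 0.00071). TOZ (AT5G16750), the homologue of yeast Utp13, a component of the U3-associated processome, read 11.2, 10.3 and 10.5 FPKM in WT and 8.09, 9.13 and 8.09 in stch4-1 (log2 fold change -0.31, SE 0.068, limma adjusted p = 0.011). SWA1 (AT2G47990), homologue of yeast Utp15, read 11.0, 11.7 and 11.6 FPKM in WT and 9.23, 7.83 and 10.2 in stch4-1 (log2 fold change -0.31, SE 0.089, limma adjusted p = 0.032). SWA1 had the largest standard error of the called factors. It shares 556 exon bases with the opposite-strand lncRNA gene AT2G09975, for which no value is given here, and 112 with the opposite-strand gene AT2G47980, which was not called (log2 fold change -0.14, limma adjusted p = 0.11).

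NOC4 (AT2G17250) read 14.5, 14.6 and 15.02 FPKM in WT and 13.0, 12.2 and 11.4 in stch4-1 (log2 fold change -0.26, SE 0.059, limma adjusted p = 0.013). RRP7 (AT5G38720) read 15.7, 15.2 and 14.2 FPKM in WT and 11.9, 12.6 and 13.1 in stch4-1 (log2 fold change -0.24, SE 0.060, limma adjusted p = 0.017). The yeast homologues of both act in small-subunit assembly, and neither gene overlapped between genotypes. The SWA1 call was lost on leaving out any WT library, stch4-1 a or stch4-1 b (limma adjusted p from 0.0561 to 0.0884) or with no filter (0.0558), and the RRP7 call without WT a (0.0546) or stch4-1 a (0.0599). The 6 others were not called. The endonuclease NOB1 (AT5G41190), which makes the final cut of the small-subunit RNA in yeast, was at 18.9 ± 0.36 and 17.7 ± 0.93 FPKM. The bystin homologue ENP1 (AT1G31660) was at 27.3 ± 0.14 and 25.3 ± 0.68, the helicase RH10 (AT5G60990) at 19.0 ± 0.408 and 17.5 ± 0.197, and the methyltransferase RID2 (AT5G57280) at 19.8 ± 0.623 and 18.01 ± 0.837. In these 4 genes the genotypes did not overlap, with limma adjusted p from 0.083 to 0.22; ENP1 was called lower under quantile normalization (limma adjusted p = 0.028). The helicase RH36 (AT1G16280) at 7.59 ± 1.12 and 7.06 ± 0.509 FPKM and the pumilio protein APUM23 (AT1G72320) at 17.4 ± 1.34 and 15.8 ± 0.543 did overlap.

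Of the 13 large-subunit factors limma called 6 lower (46.2%, against 14.0% of all genes) and 0 higher. RH29 (AT1G77030), a DEAD-box helicase related to yeast Dbp10, had the largest fall of the 40, from 11.4, 11.7 and 12.4 FPKM in WT to 8.18, 8.60 and 7.86 in stch4-1 (log2 fold change -0.48, SE 0.062, limma adjusted p = 0.001). SMO4 (AT2G40430), homologue of the yeast factor Nop53, read 55.2, 53.8 and 56.7 FPKM in WT and 42.8, 43.7 and 40.8 in stch4-1 (log2 fold change -0.37, SE 0.041, limma adjusted p = 0.00055). APUM24 (AT3G16810), a pumilio protein of spacer processing, read 17.4, 16.6 and 17.2 FPKM in WT and 13.7, 12.8 and 13.0 in stch4-1 (log2 fold change -0.35, SE 0.050, limma adjusted p = 0.0016). These 3 genes kept their calls under all 13 alternatives and had fold changes of -0.41, -0.35 and -0.32 with the length trend removed. SMO4 shares 314 exon bases with the opposite-strand gene AT2G40420, which was called higher (log2 fold change 0.18, limma adjusted p = 0.029).

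The NOC proteins escort subunits through the nucleolus and nucleoplasm, in yeast as pairs. SWA2 (AT1G72440), the NOC1 homologue, read 12.3, 12.5 and 13.8 FPKM in WT and 10.7, 10.2 and 9.78 in stch4-1 (log2 fold change -0.30, SE 0.064, limma adjusted p = 0.0087). RBL (AT3G55510), a NOC2-family protein, read 12.7, 13.5 and 13.5 FPKM in WT and 11.1, 10.6 and 9.66 in stch4-1 (log2 fold change -0.32, SE 0.064, limma adjusted p = 0.0075). NOC2 (AT2G18220) read 9.49, 11.05 and 9.95 FPKM in WT and 8.99, 8.17 and 7.80 in stch4-1 (log2 fold change -0.26, SE 0.077, limma adjusted p = 0.035). NOC3 (AT1G79150) stood at 10.3 ± 0.151 and 9.07 ± 0.497 (limma adjusted p = 0.061) and was called lower only without the eBayes trend. With NOC4 among the small-subunit factors, 4 of 5 NOC genes were called lower (80%, against 14.0% of all genes). In all 5 every stch4-1 library was below every WT library, where that held for 22.7% of all tested genes. The NOC2 call was lost on leaving out WT b or c, or stch4-1 b or c (limma adjusted p from 0.0767 to 0.1032), and also with no filter (0.0577), under quantile normalization (0.0516) and with the length trend removed (0.0734). SWA2 lost its call with the length trend removed (-0.17, limma adjusted p = 0.071).

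The PeBoW complex, which acts on the large-subunit RNA, was not called in any of its 3 members. BOP1 (AT2G40360) read 28.02, 27.8 and 29.1 FPKM in WT and 29.3, 28.5 and 27.1 in stch4-1, with a log2 fold change of 0.00 and a 95% interval from -0.11 to 0.10. WDR12 (AT5G15550) had a log2 fold change of 0.01 (95% interval from -0.11 to 0.13) and PES (AT5G14520), the pescadillo homologue, of -0.10 (95% interval from -0.18 to -0.01, limma adjusted p = 0.09). In PES every stch4-1 library was below every WT library, and quantile normalization called it lower (-0.15, limma adjusted p = 0.025). The BRX1 genes, whose yeast relative is a large-subunit assembly factor, overlapped between genotypes. BRX1-1 (AT3G15460) read 14.1, 16.5 and 14.6 FPKM in WT and 16.2, 15.5 and 14.4 in stch4-1 (log2 fold change 0.03, 95% interval from -0.14 to 0.19, limma adjusted p = 0.80). BRX1-2 (AT1G52930) read 34.3, 34.8 and 36.8 FPKM in WT and 35.2, 35.9 and 33.6 in stch4-1 (log2 fold change -0.02, 95% interval from -0.12 to 0.09, limma adjusted p = 0.80). The intervals of BOP1, WDR12 and BRX1-2 reached no lower than -0.12, and those of PES and BRX1-1 reached -0.18 and -0.14. The 6 called large-subunit factors had fold changes from -0.48 to -0.26, and the interval of NOC2 among them reached up to -0.08. The 6 were picked by their calls, so some gap to factors not called follows from that choice. With the length trend removed that gap was narrower. BOP1, WDR12 and BRX1-2 were then at 0.055, 0.01 and -0.10, and the 6 ran from -0.41 for RH29 to -0.17 for SWA2. The helicase PRH75 (AT5G62190) was at 74.9 ± 3.12 and 68.9 ± 1.39 FPKM and was called only under quantile normalization (limma adjusted p = 0.014) and without WT b (0.0388).

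The RNA-decay enzymes were not called. MTR4 (AT1G59760), the helicase that feeds nucleolar RNA to the exosome, read 13.4, 12.9 and 12.5 FPKM in WT and 13.1, 11.7 and 11.6 in stch4-1 (log2 fold change -0.09, SE 0.063, limma adjusted p = 0.33). In HEN2 (AT2G06990), its nucleoplasmic relative, the values were 10.5, 11.7 and 11.9 FPKM in WT and 8.93, 9.81 and 10.5 in stch4-1, which do not overlap (log2 fold change -0.21, 95% interval from -0.38 to -0.03, limma adjusted p = 0.07, and 0.0499 without stch4-1 c). XRN2 (AT5G42540), an exonuclease that works from the 5′ end of spacer fragments, was at 20.9 ± 0.709 and 19.9 ± 0.475 FPKM (limma adjusted p = 0.34).

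**Figure D3:**
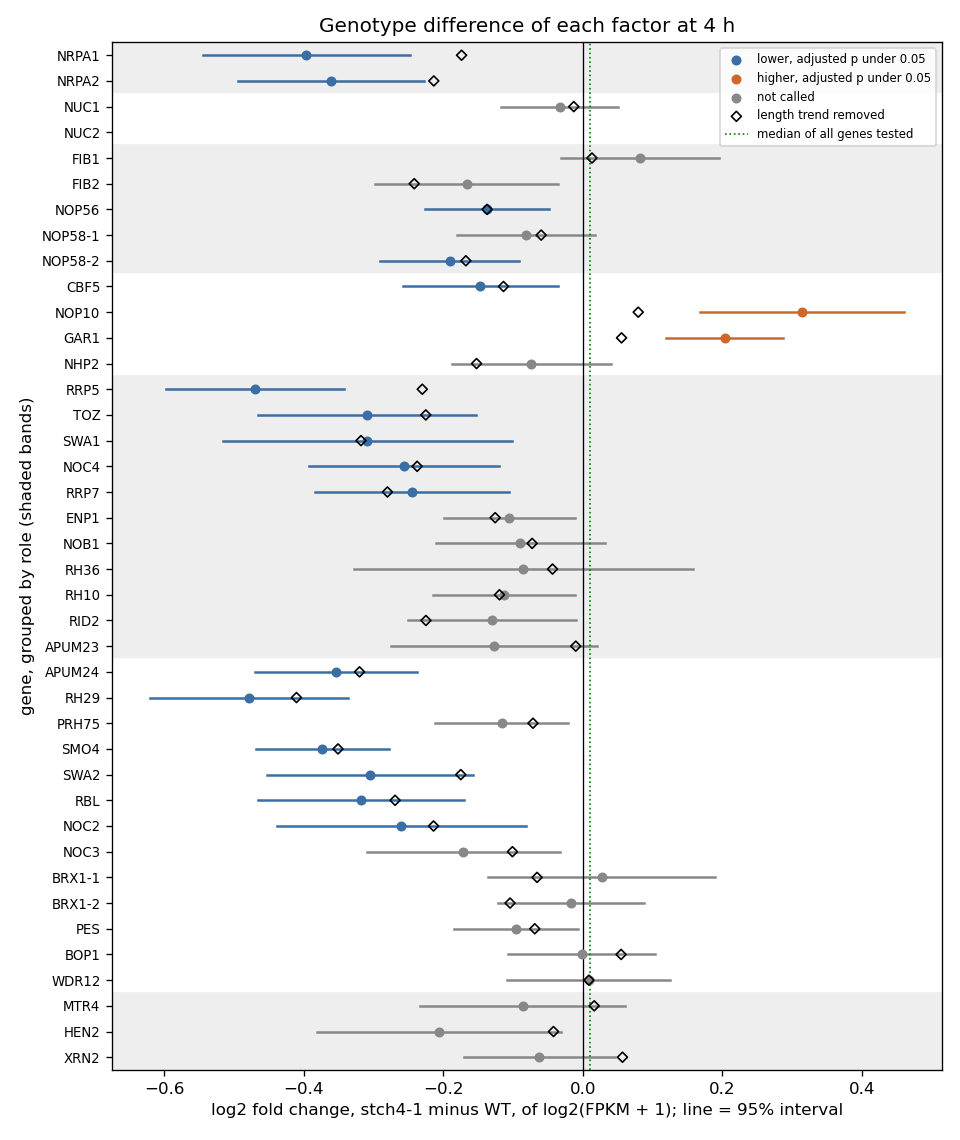
Log2 fold change, stch4-1 minus WT (x axis), of each tested factor (y axis, grouped by role); filled points and lines are limma estimates with 95% intervals, coloured by call, and open diamonds are estimates with the length trend removed. Both RNA polymerase I genes, RRP5, RH29, SMO4 and APUM24 lie at -0.35 or below, BOP1 and WDR12 lie at 0, and the diamonds of NOP10 and GAR1 fall to 0.08 and 0.06.

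Within pairs of related genes, the share of the first gene did not overlap between genotypes in 2 of 6, and no pair passed the test. FIB1 made up 69.1%, 68.5% and 69.4% of the summed fibrillarin FPKM in WT; in stch4-1 it made up 73.5%, 71.4% and 72.9% (difference of 3.60 percentage points). NUC1 made up 99.7% of the nucleolin FPKM in each WT library and between 99.5% and 99.6% in stch4-1, also without overlap. Each gave p = 0.1 in a two-sided exact permutation test over 3 and 3 libraries, which is the smallest that design allows, and an adjusted p of 0.3 over the 6 pairs. The shares of NOP58-1 (51.5% ± 1.3 and 53.5% ± 0.71), BRX1-1 (29.9% ± 1.93 and 30.6% ± 0.834), NOC2 against RBL (43.4% ± 1.39 and 44.4% ± 0.677) and MTR4 against HEN2 (53.2% ± 2.48 and 55.5% ± 3.65) overlapped between genotypes. Aligned transcripts of the fibrillarin pair were 73.3% identical, with a longest identical run of 44 bases, and those of the BRX1 pair, the most alike, 77.1%. How reads that match both genes of a pair were shared out is not given in the sources used here.

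**Figure D4:**
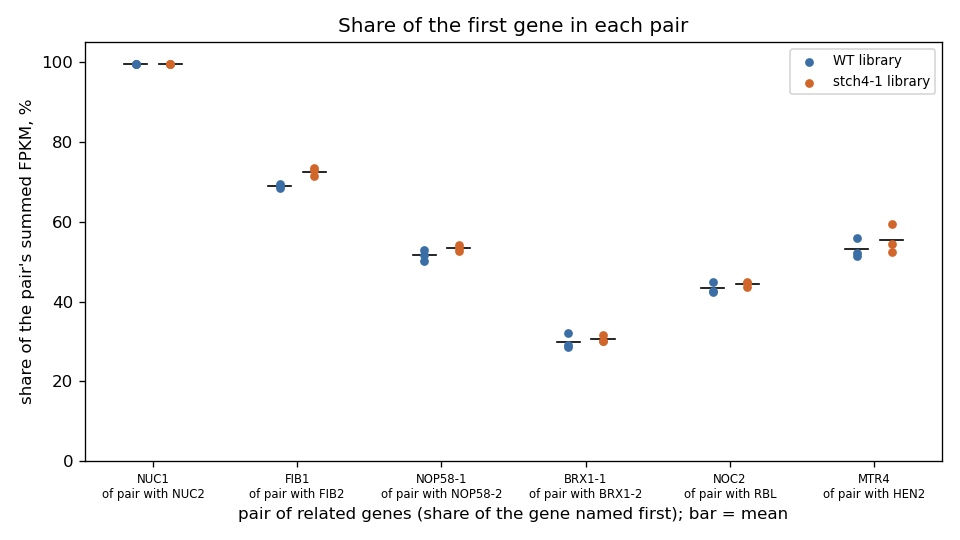
Share of the gene named first in the summed FPKM of its pair (y axis, percent) for 6 pairs of related genes (x axis), with a point for each library and a bar for the mean of 3. The FIB1 share lies from 68.5% to 69.4% among WT libraries and from 71.4% to 73.5% among stch4-1 libraries, and the last 4 pairs overlap.

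Transcript length moved with the fold change over the whole table. Over all tested genes the median log2 fold change went from 0.18 in the shortest of 10 length bins to -0.15 in the longest. The factors are longer than most, with a median exon length of 2114 bases against 1758, and the longest, RRP5 (6112 bases) and NRPA1 (5649 bases), were among the largest falls. The shortest, NOP10 (617 bases) and GAR1 (931 bases), were the 2 called higher. Across the 39 factors the Spearman correlation of length and fold change was -0.549, a description across genes that share their libraries. Below the median of all genes in their own length bin lay 31 of 39 factors, where a median has as many genes below it as above.

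With the length trend removed in each library, 14 factors were called lower, 12 of them among the 16, where 12.1% of all genes were called lower, and the median of the factors was -0.12. NRPA1 (-0.17, limma adjusted p = 0.0809), SWA2 (-0.17, 0.071), CBF5 (-0.11, 0.1156) and NOC2 (-0.21, 0.0734) were then not called, and FIB2 and RID2 were called lower. RRP5 moved from -0.47 to -0.23 and kept its call (limma adjusted p = 0.018). NOP10 (0.08, limma adjusted p = 0.39) and GAR1 (0.06, 0.29) lost theirs, so 0 factors were then called higher, where 14.1% of all genes were. Under quantile normalization, which moved the share of all genes called from 14.0% lower and 18.5% higher to 16.1% lower and 13.6% higher, 22 factors were called lower and 1 higher.

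**Figure D5:**
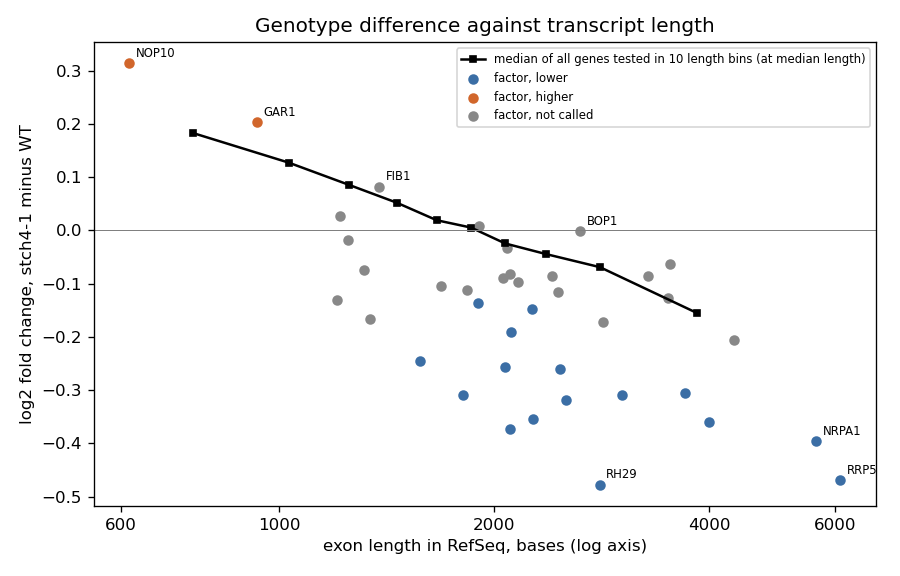
Log2 fold change, stch4-1 minus WT (y axis), of the 39 tested factors against RefSeq exon length in bases (x axis, log scale); points are factors coloured by call, and the black line joins the medians of all tested genes in 10 length bins. The line falls from 0.18 to -0.15, and 31 of 39 factors lie below the median of their bin.

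Lower calls were found with and without matches to the promoter elements. Limma called 7 of the 16 factors with matches to both elements lower (43.75%) and 9 of the 23 tested factors without both (39.1%). Those 23 include the 8 with a match to neither, of which 5 were called lower (62.5%). Of all tested genes 14.0% were called lower. The factor medians were -0.14, -0.13 and -0.28 in the same order. Those with a match to neither included both RNA polymerase I genes, RRP7, APUM24 and RBL. Of these, NRPA1 lost its call with the length trend removed.

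Other genes of the pathway, from lists of 65 given by identifier, were also called lower more often than higher. Limma called 26 of 65 lower (40%, against 14.0% of all genes) and 3 higher (4.62%, against 18.5%), with a median log2 fold change of -0.14. With the length trend removed 22 were called lower and 4 higher, where 12.1% and 14.1% of all genes were. Small-subunit processome genes had 16 of 27 lower and 1 higher, large-subunit genes 7 of 17 lower and 0 higher, exosome and exonuclease genes 1 of 13 lower and 1 higher, and other RNA polymerase I genes 2 of 8 lower and 1 higher. PCN (AT4G07410), a processome protein, read 29.2, 29.2 and 27.0 FPKM in WT and 17.5, 18.3 and 20.7 in stch4-1 (log2 fold change -0.57, SE 0.068, limma adjusted p = 0.00071). AT1G06720, homologue of the yeast GTPase Bms1, read 9.04, 9.19 and 9.56 FPKM in WT and 5.87, 6.82 and 6.50 in stch4-1 (log2 fold change -0.48, SE 0.070, limma adjusted p = 0.0019). AT5G66540, homologue of yeast Mpp10, read 13.0, 12.7 and 13.3 FPKM in WT and 9.45, 8.80 and 8.96 in stch4-1 (log2 fold change -0.47, SE 0.055, limma adjusted p = 0.00065). None of these 3 overlapped between genotypes. Without each library in turn the count of lower genes was between 20 and 23, where 9.47% to 11.8% of all genes were called lower.

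Of 7 regulators of ribosome production or of the response to nucleolar stress, 4 were lower (57.1%, against 14.0% of all genes) and 1 higher (14.3%, against 18.5%); their names are given here outside the naming rule. The kinase TOR (AT1G50030) fell from 7.63 ± 0.362 to 5.60 ± 0.407 FPKM (limma adjusted p = 0.0059) and its partner RAPTOR1 (AT3G08850) from 14.3 ± 0.149 to 11.4 ± 0.671 FPKM (limma adjusted p = 0.0059). NAC082 (AT5G09330), a transcription factor of the nucleolar stress response, fell from 31.7 ± 0.541 to 26.5 ± 0.848 FPKM (limma adjusted p = 0.0036). The S6 kinase genes went opposite ways: AT3G08730 fell from 84.4 ± 1.26 to 76.6 ± 0.643 FPKM and S6K2 (AT3G08720) rose from 25.7 ± 0.687 to 30.9 ± 0.272 (limma adjusted p = 0.014 and 0.0026). The median log2 fold change of the 7 was -0.14. It was -0.09 with the length trend removed and -0.24 under quantile normalization. Calls of single regulators, TOR and RAPTOR1 among them, are not given with the length trend removed.

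Ribosome biogenesis genes are most active in dividing cells, so markers of those cells were read beside the factors. Of 21 tested genes of DNA replication, mitosis and meristems, limma called 7 lower (33.3%, against 14.0% of all genes) and 0 higher, 14 were not called, and their median log2 fold change was -0.15; the list of 25 summed to 239 to 243 FPKM over the WT libraries and 222 to 223 over those of stch4-1. The stem-cell gene CLV3 was listed at 0 in all libraries. Negative fold changes were found in 17 of the 21 (81.0%, against 48.1% of all genes). Those of the 7 called lower ran from -0.38 for CYCB2;4 to -0.25 for PCNA1. Positive fold changes, none of them called, included the meristem gene STM (0.21, limma adjusted p = 0.12) and the mitotic cyclin CYCB1;1 (0.19, limma adjusted p = 0.28). Of 19 tested root markers 9 were lower (47.4%, against 14.0% of all genes) and 3 higher (15.8%, against 18.5%). Their median was -0.18, which is further below 0 than that of the nucleolar factors. The largest change among them was the fall of AGP30 (log2 fold change -1.58, limma adjusted p = 4.5e-05). The root list had sums from 2162 to 2204 FPKM in WT and from 2166 to 2199 in stch4-1; its most abundant gene, PYK10, a beta-glucosidase of the root, fell from 1560 ± 13.8 to 1380 ± 20.5 FPKM, while its relatives BGLU21 (145 ± 1.73 to 270.2 ± 2.76) and BGLU22 (77.2 ± 2.71 to 171 ± 3.33) rose (limma adjusted p = 0.0068, 2.7e-06 and 2.6e-06). Of 10 leaf genes 0 were lower and 2 higher (20%, against 18.5% of all genes). The part of these cell types in the fall of the nucleolar factors was not tested.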

How the data were processed

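The deposited table holds FPKM values, which the authors made with TopHat2 and Cufflinks on TAIR10, per the submitters' processing notes; for the tool versions, strand setting and shared reads no source used here gives details. Column names carry genotype and time but number libraries from 0, where titles count from 1, so no library has the replicate number of a title. Exon lengths, gene starts and symbols came from RefSeq TAIR10.1, matched by identifier (32802 of 33557). Genes with at least 1 FPKM in 3 of 6 libraries were fitted with limma 3.58.1 in R 4.3.3 on log2(FPKM + 1), a scale that understates the change of low genes, with an intensity trend in eBayes, 2-sided tests, 4 residual degrees of freedom and Benjamini-Hochberg adjustment over 19289 genes. The other 12 samples are not analysed here.

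Alternatives were a pseudocount of 0.1, no filter, a mean of at least 5 FPKM, quantile normalization, median scaling, no eBayes trend, removal of each library's loess trend with length (span 0.3), and leaving out each library. The code was tested on simulated data. Paralogue transcripts were aligned with MAFFT 7.526; Python 3.11.15 and scipy 1.17.1 served the rest. Of the 40 factors, 14 share exon bases with another RefSeq gene, 12 of them with one on the opposite strand, so their values are less certain. Full values are given for called factors and for paralogue pairs, and for the 3 called genes with the largest changes among the 65 other ribosome biogenesis genes; apart from REIL2, any other gene was named after its values were seen. The members and all lists were chosen with earlier results of these data known.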

Additional observations from a re-analysis of the deposited data

How the results depend on the processing

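Over 13 alternatives the count of factors called lower stayed within 1.5 times of 16, from 12 to 22, and was 12 to 16 on leaving out each library. The share of all genes called lower also moved, from 9.47% without WT c to 16.1% under quantile normalization. On leaving out each library that share was 9.47% to 11.8%. Of the 16, 9 were called lower under all 13: NRPA2, NOP58-2, RRP5, TOZ, NOC4, APUM24, RH29, SMO4 and RBL. The count called higher, 2, was 0 with the length trend removed, 1 under quantile normalization, 3 with no filter and 2 without each library. Of all genes, 14.1%, 13.6% and 13.2% were called higher in the same order, and 13.6% to 16.9% without each library. The median log2 fold change of the factors was -0.13; it went to -0.19 under quantile normalization and lay from -0.14 to -0.12 on leaving out each library.

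Signs turned only for factors that were not called. With the length trend removed BRX1-1 had a log2 fold change of -0.066, BOP1 of 0.055, MTR4 of 0.016 and XRN2 of 0.057. Quantile normalization gave -0.047 for FIB1 and -0.028 for WDR12, and median scaling gave 0.0036 for BOP1. On leaving out each library in turn, the log2 fold change ran from -0.015 to 0.088 for BRX1-1, from -0.037 to 0.012 for BRX1-2, from -0.026 to 0.029 for BOP1 and from -0.019 to 0.051 for WDR12. The BRX1-1 share differed by -0.0727 to 1.75 percentage points over single left-out libraries, with the reversal without WT c.

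No paired analysis was possible because the columns carry no replicate number of the titles. The depth behind each FPKM is known only relative to the other libraries, so low genes such as NUC2 have no counting interval. The causes of these shifts were not tested, apart from those that the alternative itself removes.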
